A study of Mus musculus with 30 samples.

Results

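The nuclear-encoded subunits of respiratory complexes II to V, with the electron carrier cytochrome c, were followed in liver and skeletal muscle on 3 diets. The members were all array probes whose gene symbol in the platform annotation begins with Uqcr, Cox4 to Cox8 or Atp5, or is Sdha, Sdhb, Sdhc, Sdhd, Cyc1 or Cycs. This gave 57 of the 25697 probes, for 47 of the 16593 genes named on the array, and no probe carried the symbol Sdha. Of these, 44 probes of 38 genes were detected often enough to be compared in liver and 47 probes of 40 genes in muscle, after requiring that the detection p-value lie below 0.02 in 5 or more of the tissue's 15 arrays. The probes of Cox4i2, Cox6b2, Cox7b2, Cox8c, Uqcrfs1, Uqcrq and Atp5k, with 1 further probe each of Sdhc and Atp5j, passed in neither tissue. Those of Cox6a2 and Cox8b, and 1 of the probes of Sdhb, passed in muscle alone.

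The arrays were Illumina MouseRef-8 v2 bead arrays, 30 in all, with 5 for each tissue and diet. All mice were male C57BL/6J and were placed on their diets at 28 weeks of age. The SD group received the AIN-93G standard diet, and the SRT2104 group received it with 1.33 g of SRT2104 per kg of chow, which the labels put at a daily dose near 100 mg/kg. SRT2104 is a synthetic activator of the NAD-dependent deacetylase SIRT1. The calorie-restricted (CR) group received the standard diet at 40% restriction. The methods give 41 weeks of age and 14 weeks on diet for the array mice of all diets, and the design text a selection after 41 weeks. The growth notes of SD and SRT2104 mention only the end of life. SD arrays serve as the control of both treatments, and comparisons with SD therefore share them.

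Complex II passes electrons from succinate to ubiquinone, complex III from ubiquinone to cytochrome c, and complex IV from cytochrome c to oxygen. Complexes III and IV pump protons across the inner mitochondrial membrane, and complex V, the ATP synthase, uses the returning protons to make ATP. Several complex IV subunits exist in a form made in most tissues, known as the liver form, and a form made mainly in heart and skeletal muscle. The catalytic core subunits of complexes III and IV that mitochondrial DNA encodes are not among the members.

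Before any comparison, 4 arrays stood apart, for RNA of another tissue, a weak match with the group or a low level of muscle fibre proteins. Muscle SRT2104 replicate 3 had a mean level of 12.9 (log2 signal) over 16 proteins secreted by hepatocytes, 10 of which passed detection in muscle, against 6.72 to 7.78 on the other muscle arrays. Muscle CR replicate 3 had a median correlation of 0.811 with its group. The lowest share of detected probes, 26.7%, was on an array of the muscle CR group. Its replicate is not known, since detection values were matched to groups only. Muscle SD replicate 1 had the lowest mean of skeletal muscle fibre proteins, 13.2 against 13.8 to 14.5. Its correlation with its group, 0.966, was close to the 0.964 of muscle CR replicate 2, which was kept. Muscle SRT2104 replicate 2, also kept, had slow fibre proteins at 12.3, against 9.77 to 10.8 on the rest of its group. Liver CR replicate 1 had a mean of 10.2 over 14 muscle fibre proteins, 2 of which passed detection in liver, against 6.96 to 7.60 on the other liver arrays. Without the 3 muscle arrays 12 remained, and muscle results are given over 15 and over 12 arrays. Muscle RNA came from bulk tissue, as did liver RNA, and fewer cells of a type cannot be told apart from less RNA per cell.

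The question of which tissue carries more of each subunit transcript was addressed on SD, in 1 linear model of the SD arrays of both tissues. Relative to the other probes of an array, nearly every subunit was higher in muscle, and the muscle forms of complex IV set the upper end. This scale sets every array to the same mean and spread. On the deposited signals, most member probes had a higher SD median in liver. The medians were 13117 in muscle and 14392 in liver for Uqcrc2, 12069 and 21531 for Cox4i1, and 14951 and 21679 for Uqcr11. Atp5g1 was among those higher in muscle, at 21118 and 11076. The calls that follow hold for the relative scale only. Of 47 probes, 42 were higher and 4 lower in muscle (limma, adjusted p under 0.05, which 76.7% of all 12859 probes passed, 42.6% higher and 34.1% lower), and the member median was 1.20 log2 units above liver against 0.07 for all probes. The liver forms Cox6a1, Cox8a and Cox7a2 were the ones that were lower. Sdhd, a membrane anchor of complex II, was the only probe not called, with a difference of 0.25 (95% CI -0.17 to 0.68).

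Cox6a2, the muscle form of subunit 6a, lay between 14.4 and 15.7 log2 units in muscle on SD and was not detected on any liver array of SD. On the rescaled values this put muscle at least 260-fold higher. The deposited signals were closer, with SD medians of 24396 in muscle and 168.5 in liver. Cox8b, the muscle form of subunit 8, lay between 13.8 and 14.9 in muscle and was likewise not detected in SD liver. Its bound on the rescaled values was 164-fold, and its median deposited signals on SD were 15725 and 165.3. Cox7a1, the muscle form of subunit 7a, was detected in both tissues and was 6.90 log2 units higher in muscle (SE 0.20, n = 5 arrays each, adjusted p 9.37e-13 by limma). Its median deposited signals on SD were 16890 in muscle and 257.7 in liver. The liver value was near the lowest detected signals of SD liver (187.7 to 205.6). No SD array of one tissue overlapped the other for these 3 muscle forms. Of all members, 38 lay higher and 3 lower without overlap, beside 36.1% and 28.6% of all probes. The 38, like the 42 called higher, include Cox6a2, Cox8b and 1 Sdhb probe, which passed detection in muscle alone. The direction of these probes followed from that filter.

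Cox6a1, the partner of Cox6a2, ran the other way on both of its probes. On one probe the SD livers read 13.16, 13.37, 13.55, 13.37 and 13.15, and the SD muscles 10.45, 11.08, 11.45, 10.99 and 11.33. Every liver was above every muscle, and the differences on the 2 probes were -2.26 and -3.02 log2 units (limma, adjusted p 2.03e-08 and 2.98e-11). Cox8a, the liver form of subunit 8, fell by 1.87 in muscle against liver (SE 0.15, adjusted p 5.13e-08). Cox7a2 fell by 0.35 with groups that overlapped (adjusted p 0.0459).

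The isoforms stood off their group on several arrays with unusual marker levels. Muscle SRT2104 replicate 3, with its high hepatocyte proteins, read 12.9 for Cox6a1 on the same scale, against 10.37 to 10.98 on the other 4 SRT2104 muscles. Muscle CR replicate 2, not among the 4 arrays that stood apart, had the highest adipocyte markers of all muscle arrays (9.64) and the highest slow fibre proteins (12.8). It read 12.4 for Cox6a1 and 12.7 for Cox8a. Muscle CR replicate 3 was the lowest muscle for Cox6a1, at 9.57, but high for Cox8a, at 12.5. Liver CR replicate 1 read 8.93 for Cox6a2 and 8.16 for Cox8b, where the other livers reached at most 7.17 and 7.19. The part of other cells in these readings was not tested.

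**Figure D1:**
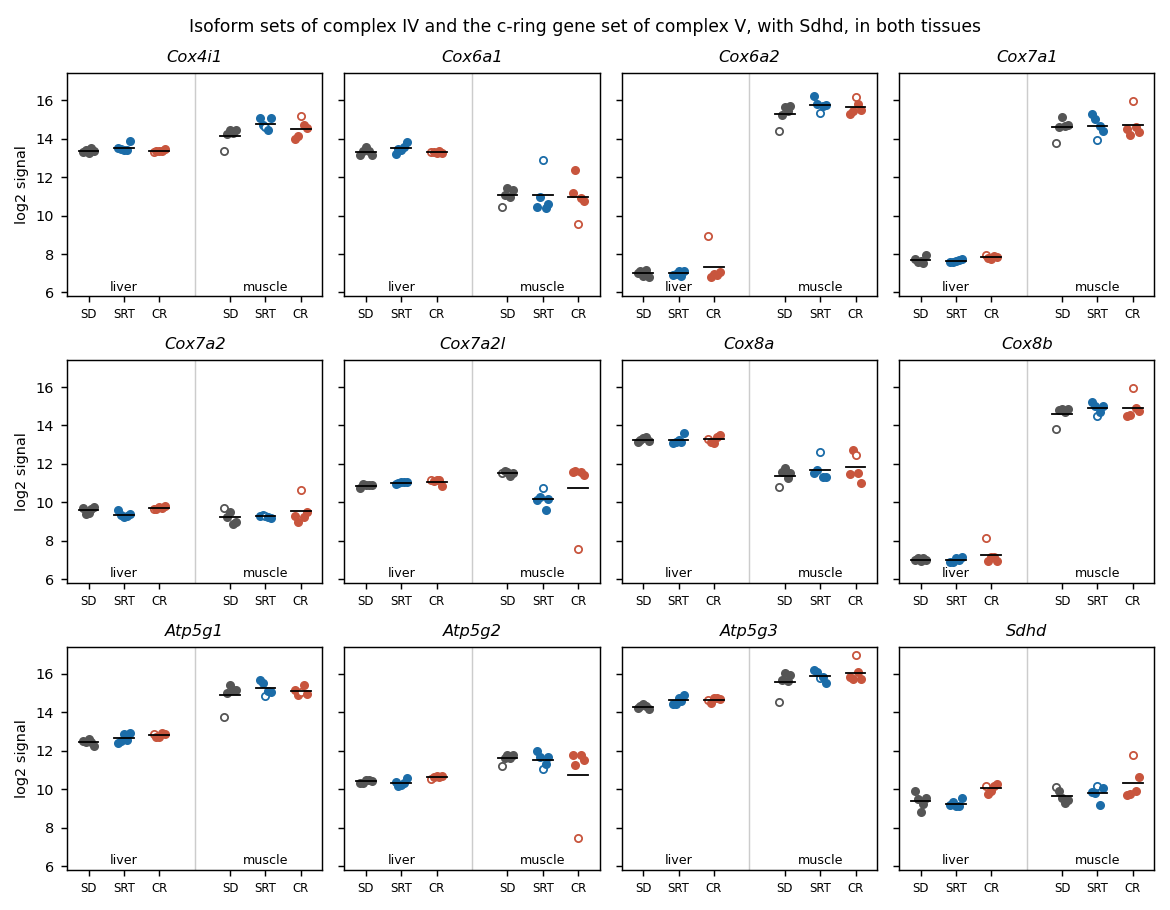
Log2 signal of 12 complex II, IV and V probes on each of the 30 arrays (vertical axis), in liver and muscle by diet (horizontal axis), on a scale common to both tissues; lines mark the mean of 5 arrays and hollow points the 4 arrays that stood apart. Cox6a2, Cox7a1 and Cox8b are high in muscle and Cox6a1 and Cox8a in liver, and a hollow point sits off its group for Cox6a1 in SRT2104 muscle and for Cox6a2 and Cox8b in CR liver.

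Subunits with no tissue form also differed on this relative scale, by smaller amounts. In complex III all 7 measured genes were higher in muscle, by 0.72 (Uqcrb) to 1.96 (Uqcrc1, a core protein). The deposited SD median of Uqcrc1 was also higher in muscle (11714 against 8669). Those of most other complex III probes were higher in liver, as for Uqcrb (5177 against 4087 in muscle). In complex V the 3 genes for subunit c, which forms the rotating ring and is the same mature protein from each gene, were higher by 2.44 (Atp5g1), 1.25 (Atp5g3) and 1.20 (Atp5g2). The deposited SD medians of Atp5g3 (30933 in muscle, 50826 in liver) and Atp5g2 (2302 and 2356) were higher in liver. Atp5a1, the alpha subunit of the catalytic head, was higher by 1.60 (adjusted p 1.15e-08), and Cycs by 1.60 and 1.06 on its 2 probes.

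Promoter sequence from RefSeq (mouse build GRCm38.p6, 250 bases before to 50 bases after the gene start) was matched to 35 of the 47 genes by Entrez gene identifier, giving 38 promoters. In the 250 bases before the start, CpG steps numbered 1 for Cox8b, 4 for Cox7a1, 11 for Cox8a, 14 for Cox7a2 and 26 for Cox6a1. The median was 13 over member promoters and 6 over all 32851. No promoter was matched for the muscle form Cox6a2. Few steps were not particular to muscle forms, with 5 for Uqcr10 and for Cox7b and 7 for Atp5l. The 120 bases before the start of Cox8b and Cox6a1 are shown since this pair spans the range of these isoforms and differs most plainly between the tissues. Capitals mark matches on either strand to the NRF1 motif (GCGC and TGCGC with any 1 base between them), the ETS motif CCGGAAG and the E-box CAGCTG, and a match is a description of letters only.
Cox8b (chr7:140900447-140900566, minus strand): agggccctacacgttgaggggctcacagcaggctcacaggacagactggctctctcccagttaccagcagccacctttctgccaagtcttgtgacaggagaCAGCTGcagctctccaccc
Cox6a1 (chr5:115348959-115349078, minus strand): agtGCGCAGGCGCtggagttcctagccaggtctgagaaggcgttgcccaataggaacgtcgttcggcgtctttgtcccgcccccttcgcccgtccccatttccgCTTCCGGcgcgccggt
Over the full windows of 300 bases, the NRF1 motif was found in 9 of the 38 member promoters and in 4.6% of all promoters, and the ETS motif in 12 and in 8.86%. The ERR motif AAGGTCA was found in 5 and in 4.72%, YY1 (AAGATGGCG) in 2 and in 1.4%, and the E-box in 2 (Atp5b and Cox8b) and in 16.3%.

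In liver, SRT2104 and CR were compared directly. On SRT2104, 13 probes of 12 genes were lower than on CR and 1 was higher, so that 14 of 44 (31.8%) passed limma's adjusted p of 0.05 beside 27.1% of all 11065 probes (lower 14.1%, higher 13%). The share was near that of all probes, whereas the calls of the members lay almost all on 1 side. The member median was -0.07 against 0.01 for all probes. Complex II carried the deepest shift, with 3 of its 4 probes lower and a median of -0.40, and complex V and complex IV had 5 and 3 probes lower. Without overlap between the groups, 5 members were lower and 1 higher, beside 11.4% and 10.4% of all probes. The split stayed between 12 and 15 lower with 1 higher under every other scaling or filter tried.

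Sdhd read 9.58, 9.72, 9.51, 9.50 and 9.96 on SRT2104 and 10.62, 10.16, 10.35, 10.64 and 10.73 on CR. All 5 SRT2104 livers lay below all 5 CR livers. The difference was -0.85 log2 units (SE 0.17, limma, adjusted p 0.00159), a 1.80-fold difference and the largest of the members. SD livers ranged from 9.16 to 10.34 and overlapped both.

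Sdhb, the iron-sulphur subunit through which complex II hands electrons on, fell in the same contrast on both measured probes, by 0.42 and 0.39 (adjusted p 0.00868 and 0.00984). On the first probe the SRT2104 livers read 11.47, 11.90, 11.62, 11.72 and 12.12 and the CR livers 12.15, 12.01, 12.28, 12.28 and 12.21. The highest SRT2104 liver, replicate 5, reached into the CR range and the other 4 did not. Sdhc, the other membrane anchor, differed by -0.03 and was not called.

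Atp5l, subunit g of the membrane part of ATP synthase, read 12.14, 12.04, 11.93, 11.95 and 12.15 on SRT2104 and 12.41, 12.39, 12.41, 12.39 and 12.32 on CR. The groups did not overlap, and the CR livers varied little among themselves. The difference was -0.34 (SE 0.07, adjusted p 0.00196). Cox7b, a small complex IV subunit, was lower by 0.50 (adjusted p 0.00293) and Cox7a2 by 0.38 (0.00419), both without overlap, and Cox6c, also of complex IV, was lower by 0.54 (0.00716) with overlap. Cycs was lower by 0.57 on its probe called in this contrast (0.00634), with SRT2104 livers at 7.50 to 7.93 and CR livers at 7.81 to 8.67. This probe was dim and was detected on 4 of the 5 SRT2104 livers. Its median signal there was 201.4, near the lowest detected signals of that group (165 to 189). The other Cycs probe differed by -0.02.

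Within complex V, the head subunits went in opposite directions. Atp5b, the catalytic beta subunit, read 15.16, 15.20, 15.33, 15.41 and 15.56 on SRT2104 and 15.02, 14.86, 15.05, 15.09 and 14.94 on CR. All SRT2104 livers were above all CR livers, with a difference of 0.34 (SE 0.09, adjusted p 0.00777). Atp5a1, its alpha partner, was lower by 0.46 (SE 0.12, adjusted p 0.00798), and Atp5g2 by 0.32 (0.00431). The 10 probes with the smallest adjusted p in this contrast (Sdhd, Atp5l, Cox7b, Cox7a2, Atp5g2, Cycs, Cox6c, Atp5b, Atp5a1 and Sdhb) stayed past 0.05 in every alternative computed for them.

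The promoters of Sdhd, Atp5l and Atp5b are shown because these genes moved most firmly in liver and, for Atp5b, in the opposite direction. Capitals mark the same motifs, with ERR (AAGGTCA, here read on the opposite strand) added.
Sdhd (chr9:50603850-50603969, minus strand): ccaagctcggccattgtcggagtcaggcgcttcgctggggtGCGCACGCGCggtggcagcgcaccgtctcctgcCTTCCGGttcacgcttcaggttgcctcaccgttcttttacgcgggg
Atp5l (chr9:44920743-44920862, minus strand): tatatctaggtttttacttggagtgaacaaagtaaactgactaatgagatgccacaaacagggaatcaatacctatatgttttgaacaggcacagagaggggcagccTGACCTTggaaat
Atp5b (chr10:128083187-128083306, plus strand): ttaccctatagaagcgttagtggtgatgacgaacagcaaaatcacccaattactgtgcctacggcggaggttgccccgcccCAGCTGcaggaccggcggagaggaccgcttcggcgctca
Sdhd held an NRF1 and an ETS match in this stretch, Atp5l an ERR match and Atp5b an E-box. Sdhd also had an ERR match after its start.

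Against SD, CR raised 17 liver probes of 16 genes and lowered 1, Cox5b. This was 40.9% of the 44 members, beside 26.7% of all probes (higher 13.8%, lower 12.9%), and the member median was 0.17 against 0.00. By complex, 3 of 4 probes rose in complex II, 3 of 8 in complex III, 3 of 14 in complex IV, 8 of 16 in complex V and 0 of 2 for cytochrome c (0 also at an unadjusted p under 0.05). The direction depended on the scaling, since scaling each array to its median gave 6 higher and 8 lower, quantile normalization 11 and 3, and neqc 11 and 1. Without liver CR replicate 1, the array with muscle transcripts, 12 were higher and 1 lower. Calls numbered 10 without CR replicate 4 and 11 without SD replicate 2 or CR replicate 5. Without overlap, 9 members were higher and 0 lower, and 8.31% of all probes were higher in this way.

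Sdhd was higher on CR than on SD by 0.70 (95% CI 0.34 to 1.05, adjusted p 0.00642), with SD livers at 10.34, 9.93, 9.16, 9.64 and 9.96. The lowest CR liver, at 10.16, was below the highest SD liver. Its adjusted p was 0.0631 with the methods' t-test and under 0.05 in the other alternatives. Uqcrb, a small subunit of complex III, read 12.59, 11.95, 12.06, 12.21 and 12.32 on SD and 12.54, 12.62, 12.53, 12.81 and 12.76 on CR. SD replicate 1 was the only SD liver within the CR range, and the difference was 0.43 (SE 0.11, adjusted p 0.00825). Sdhb rose by 0.39 and 0.37 on its 2 probes (adjusted p 0.00972 and 0.0197). Uqcrb and the first of these Sdhb probes stayed past 0.05 in every alternative.

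All 3 genes for subunit c of ATP synthase were higher on CR without overlap with SD, Atp5g3 by 0.36 (adjusted p 0.00467), Atp5g1 by 0.37 (0.0159) and Atp5g2 by 0.23 (0.0290). The Atp5g3 call was lost with neqc, quantile normalization and median scaling, and the Atp5g1 call with median scaling. Atp5j, subunit F6 of the stalk, gave unlike results on its 2 probes, a rise of 0.26 (0.0155) on one and a value of -0.23 (0.0865) on the other. Cox5b read 14.06, 14.37, 14.32, 14.57 and 14.11 on SD and 13.91, 13.88, 13.94, 14.14 and 14.04 on CR. Most CR livers lay below all SD livers, 1 lay among them, and the fall was 0.30 (SE 0.09, adjusted p 0.0186). The Cox5b call was lost with the deposited scores as they are, with no filter and with the methods' t-test, and the Atp5j rise with neqc, quantile normalization and median scaling.

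Other measures differed between the diets in liver too. Of 15 measured hepatocyte secreted proteins, 9 were higher on CR and 10 on SRT2104 than on SD, with median differences of 0.35 and 0.57, and their mean level was 13.9 to 14.2 on SD, 14.2 to 14.5 on CR and 14.3 to 14.8 on SRT2104. Lower on CR than on SD were Clec4f of the macrophages (-0.29, adjusted p 0.0301), Alas2 of the red cell line (-0.69, 0.000528) and Elovl3, a fatty acid elongase (-2.02, 6.68e-07), each the only called marker of its list. Signal over background was 3.56 to 4.66 on SD, 3.32 to 3.84 on CR and 2.85 to 3.77 on SRT2104. Their part in the liver results was not tested.

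**Figure D2:**
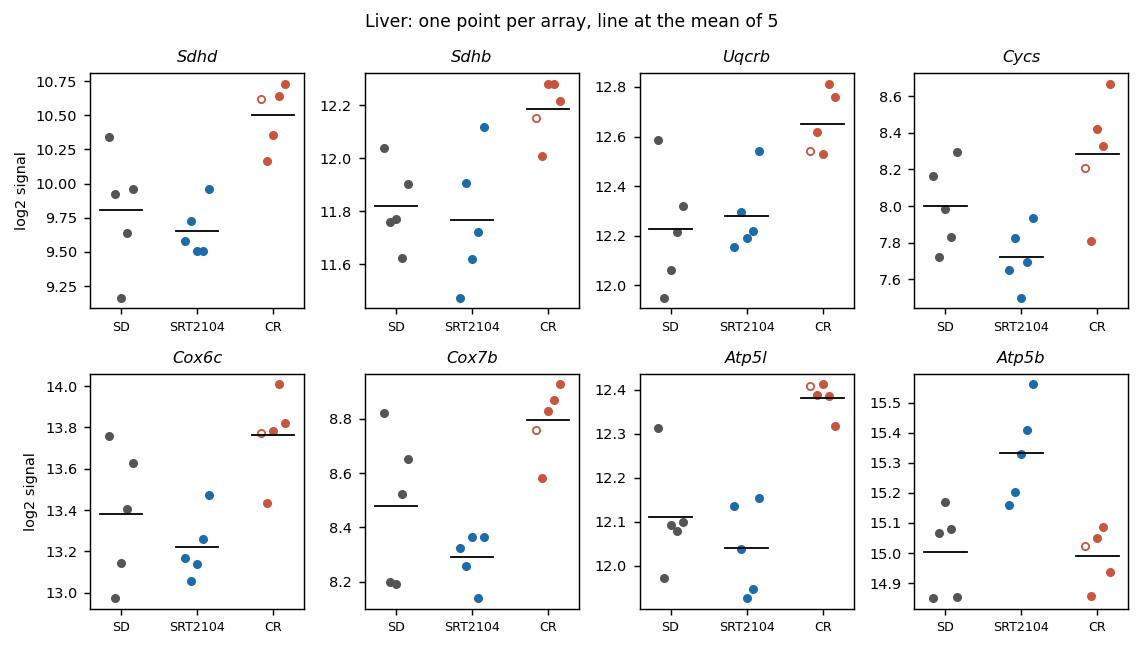
Log2 signal in liver (vertical axis) of 8 member probes on each of 15 arrays by diet (horizontal axis), with lines at the mean of 5 and a hollow point for liver CR replicate 1. Sdhd, Atp5l and Cox7b are lower on all 5 SRT2104 livers than on all 5 CR livers, and Atp5b is higher.

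SRT2104 against SD in liver left 1 probe called, Atp5b, which rose by 0.33 (SE 0.09, adjusted p 0.0489). This was 2.27% of members beside 3.16% of all probes (higher 1.51%). At an unadjusted p under 0.05, 6 members were higher and 2 lower, where 19.2% of all probes passed, and the member median was 0.04 against 0.00. The Atp5b call was lost in 13 of the 15 fits without 1 array and in 7 of 9 other alternatives. SD livers read 14.85, 15.07, 15.17, 15.08 and 14.85 for Atp5b, and the lowest SRT2104 liver lay just below the highest SD liver. Atp5g3 was the member with the next smallest adjusted p, with a difference of 0.29 (0.0635) and no overlap, as for 3 members in all and 2.62% of all probes. SRT2104 replicate 5 had the highest mean over the 38 member genes of its group, 12.6 against 12.3 to 12.4.

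**Figure D3:**
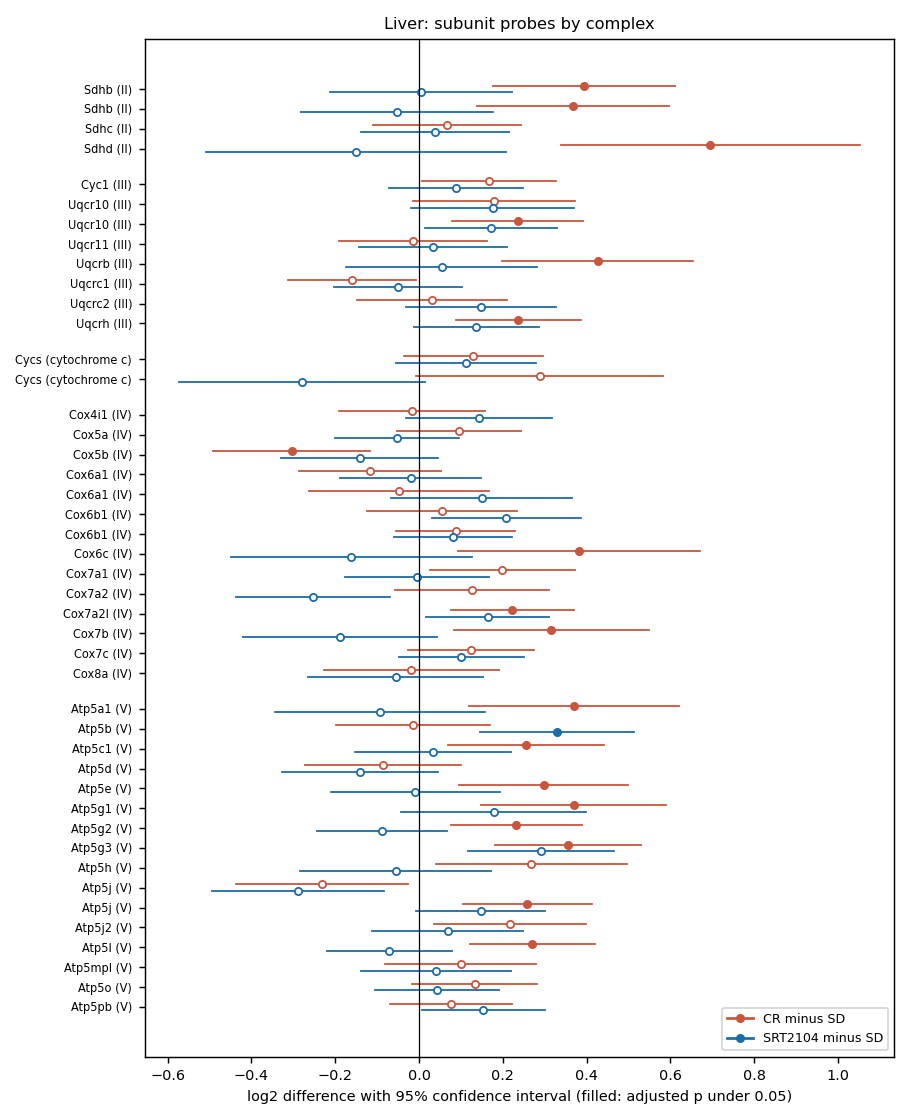
Difference in log2 signal (horizontal axis) of the 44 liver probes, listed by gene (vertical axis), for CR minus SD and SRT2104 minus SD, with 95% confidence intervals and filled points for an adjusted p under 0.05. On CR 21 intervals lie wholly to the right of 0 and 3 wholly to the left, with Sdhd farthest at 0.70, and on SRT2104 only Atp5b is filled.

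In muscle, SRT2104 against SD gave 0 called members over all 15 arrays (limma), where 10.8% of all 10792 probes were called. At an unadjusted p under 0.05, 2 were higher and 5 lower, the smallest adjusted p was 0.0506 (Atp5j), and other tools and settings on the 15 arrays called 1 to 8 wherever they called any, 6 of them with the methods' t-test. An unadjusted p under 0.05 was reached by 25.9% of all probes. The count was 9 without CR replicate 3 and 1 without SD replicate 1 or without SRT2104 replicate 1. Without overlap, 1 member was higher and 4 lower, beside 7.6% and 10.9% of all probes. Over the 12 arrays, 3 probes were higher and 9 lower (25.5%, beside 31.8% of all probes, 17.5% higher and 14.3% lower). The member share was thus below the background, and the median, 0.07, was close to the 0.06 of all probes. Leaving out each of the 12 arrays gave 9 to 17 calls.

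Over those arrays the largest falls were in the peripheral stalk of ATP synthase, which holds the head still against the membrane part, and in Cox7a2l, a relative of the Cox7a subunits known for its place in assemblies of complexes III and IV. Atp5pb, the stalk's subunit b, read 11.68, 12.01, 12.22, 11.94 and 12.01 on SD and 10.17, 10.64, 10.99, 9.41 and 10.24 on SRT2104, all 15-array values. Every SRT2104 muscle was below every SD muscle, also with the arrays that stood apart included. The difference was -1.68 (adjusted p 0.130) over 15 arrays and -1.93 (SE 0.19, adjusted p 7.61e-06) over 12. Among CR muscles, replicate 3 read 7.68 and the other 4 read 11.98 to 12.27, near SD.

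Cox7a2l read 10.97, 11.03, 10.98, 10.78 and 10.94 on SD and 9.66, 9.77, 10.32, 9.19 and 9.72 on SRT2104. The groups did not overlap, and the difference was -1.21 (adjusted p 0.172) over 15 arrays and -1.35 (SE 0.12, adjusted p 2.39e-06) over 12. CR muscles read 11.02, 11.07, 7.45, 10.99 and 10.83, with replicate 3 again the lowest. Atp5j, the stalk's F6, fell by 1.15 on one probe and 0.42 on the other over 12 arrays (adjusted p 7.35e-05 and 0.0153, the latter lost in 2 of the 12 fits without 1 array). Atp5o, the subunit that joins the stalk to the head, fell by 0.56 (0.000684), and the remaining stalk subunit, Atp5h, rose by 0.35 (0.0448), a call lost in 8 of those fits.

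Atp5e, the epsilon subunit of the central stalk, went up instead. It read 8.75, 9.35, 9.24, 9.07 and 9.10 on SD and 9.89, 9.79, 9.72, 9.51 and 9.99 on SRT2104. All SRT2104 muscles were above all SD muscles, by 0.68 (adjusted p 0.372) over 15 arrays and 0.60 (SE 0.11, adjusted p 0.000832) over 12. Atp5c1, the gamma subunit, rose by 0.41 (0.0402), a call lost in 7 of those 12 fits. Cox7c and Cox5a of complex IV fell by 0.57 and 0.50 (0.00307 and 0.00620), Atp5l by 0.45 (0.00500) and Uqcrh, the hinge protein of complex III, by 0.37 (0.0194), lost in 3 of them.

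Other measures moved with SRT2104 in muscle. All 6 fibroblast and matrix markers were measured, with a mean of 8.45 to 8.73 on SRT2104 and 9.08 to 9.57 on SD. The 6 adipocyte markers, of which 3 passed detection, had means of 7.15 to 7.25 and 7.48 to 7.81. Of those 3, 0 were called over 12 arrays. Over the same arrays, 5 of 10 measured hepatocyte secreted proteins were higher on SRT2104 than on SD, with a median difference of 0.42. This was 50% of them, beside 31.8% of all probes. The median signal over background was 1.94 to 2.30 on SRT2104 and 2.15 to 3.84 on SD. The lowest value, 1.39, was on an array of the muscle CR group whose replicate is not known. Muscle CR replicate 3 lay on the SRT2104 side of the other CR muscles for 7 of the 12 called members (58.3%). Among these members were Atp5pb, Cox7a2l, Atp5j, Atp5o and Atp5e, and the share over all 3431 called probes was 60.2%. The part of these measures in the result was not tested.

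**Figure D4:**
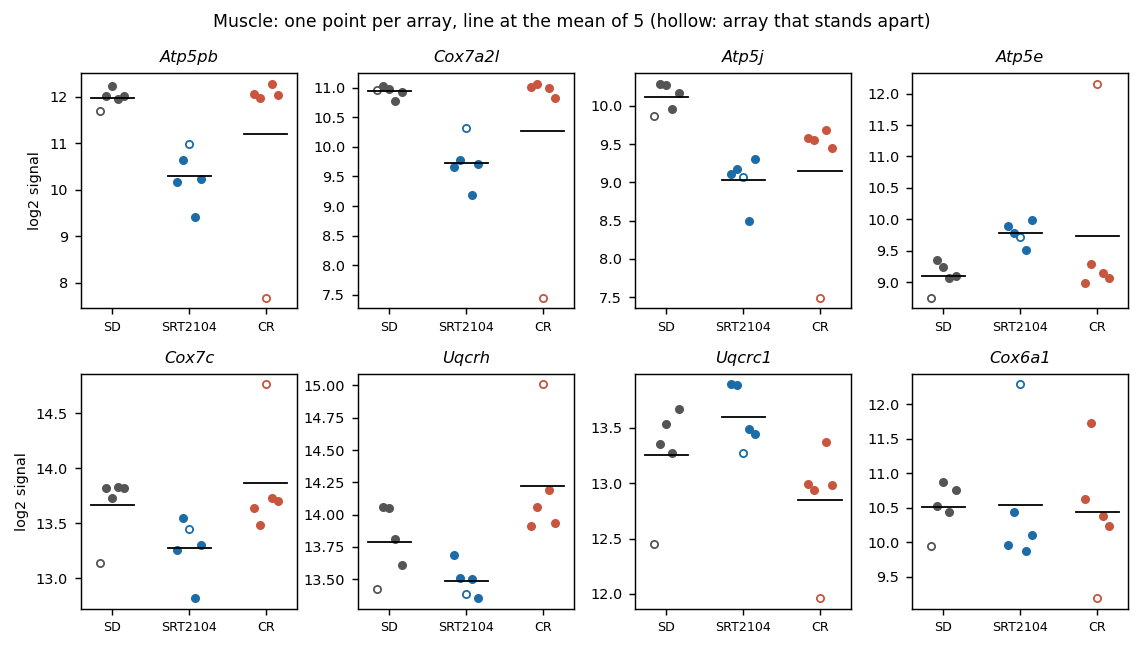
Log2 signal in muscle (vertical axis) of 8 member probes on each of 15 arrays by diet (horizontal axis), with lines at the mean of 5 and hollow points for SD replicate 1, SRT2104 replicate 3 and CR replicate 3. Atp5pb, Cox7a2l and Atp5j are lower and Atp5e is higher on every SRT2104 array than on every SD array, and the hollow CR point lies on the SRT2104 side of its group for these 4.

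SRT2104 against CR in muscle called 3 probes over 15 arrays, all lower on SRT2104, which was 6.38% beside 10.7% of all probes (lower 5.66%). They were Uqcrh at -0.73 (adjusted p 0.0235), Atp5l at -0.49 (0.0267) and Uqcrb at -0.58 (0.0360). Uqcrh read 13.69, 13.51, 13.39, 13.50 and 13.36 on SRT2104 and 13.91, 14.06, 15.01, 14.19 and 13.94 on CR, without overlap, as for 2 members in all and 5.72% of all probes. Leaving out 1 array gave 0 to 8 calls, 8 without CR replicate 3, 0 without SRT2104 replicate 4, and 1 each without SRT2104 replicates 2 and 5. Over 12 arrays, 7 were higher and 9 lower (34.0%, as for all probes, 34%, of which 19.2% were higher and 14.9% lower), among them Cox7a2l at -1.39 (1.80e-06), Atp5pb at -1.97 (7.08e-06), Atp5e at 0.67 (0.000366), Atp5o at -0.53 (0.000913), Atp5d, the delta subunit, at 0.52 (0.00238) and Uqcrc1 at 0.61 (0.00337). Uqcr11 was at 0.42 (0.0122) and the dimmer Atp5j probe at -0.55 (0.0109).

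CR against SD in muscle called 0 members over 15 arrays and 0 over 12 (limma), beside 0.454% and 2.03% of all probes. At an unadjusted p under 0.05, 4 members passed over 15 arrays and 6 over 12, beside 10.6% and 16.1% of all probes. The smallest adjusted p over 12 arrays was 0.0507, for Atp5j at -0.60, where the 4 CR muscles (9.45 to 9.69) lay below the 4 SD muscles (9.96 to 10.29). A p above the threshold does not show that the levels were alike, and the intervals of the members had a median standard error of 0.23 over 15 arrays and 0.13 over 12.

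**Figure D5:**
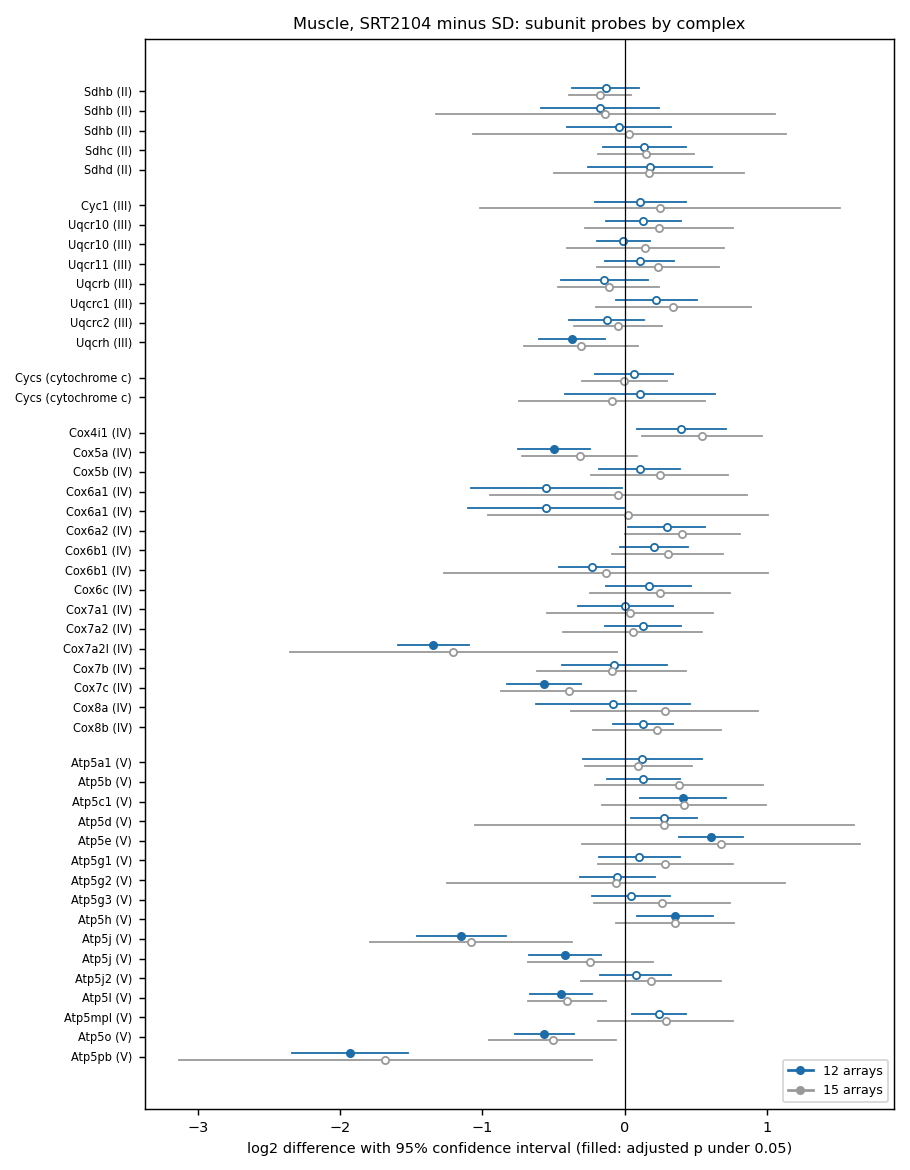
Difference in log2 signal (horizontal axis) of the 47 muscle probes, listed by gene (vertical axis), for SRT2104 minus SD over 15 and over 12 arrays, with 95% confidence intervals and filled points for an adjusted p under 0.05. The intervals narrow over 12 arrays, where 12 probes are filled, from Atp5pb at -1.93 to Atp5e at 0.60.

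Whether the response differed between tissues was tested as an interaction over the 8998 probes measured in both, 44 of them members. By the design text both tissues came from the same mice, but titles do not tie a liver to a muscle, and the main fit took arrays as independent. For SRT2104, 0 members were called over 30 arrays (limma, 7 at an unadjusted p under 0.05, all lower in muscle), beside 10.4% of all probes (24.7% unadjusted). Without muscle CR replicate 3 the count was 8. With the 12 muscle arrays 2 were higher and 9 lower (25%, beside 26.2% of all probes, 14% higher and 12.3% lower), led by Cox7a2l at -1.51 (SE 0.13, adjusted p 2.15e-09) and Atp5pb at -2.09 (SE 0.19, 8.48e-09). In liver, Cox7a2l and Atp5pb were at 0.16 and 0.15 on SRT2104 against SD, neither called (0.203 and 0.236). With the replicate number of the titles as a block over these arrays, 2 were higher and 8 lower for SRT2104, with Cox7a2l at -1.47 and Atp5pb at -2.07 (3.49e-06 each), and Cox5a (0.0520) was no longer called. For CR, 0 members were called over 30 arrays, none of them at an unadjusted p under 0.05 either, beside 4.78% of all probes (20.2% unadjusted). With the 12 muscle arrays 2 were lower in muscle (beside 11.1% of all probes, 5.18% lower), Atp5j at -0.46 (0.0272) and Cox7a1 at -0.53 (0.0439), and 0 once liver CR replicate 1 was also left out or with that block.

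Assembly factors, which build the complexes but are not part of them, were listed as 36 genes, of which 25 were measured in each tissue. In liver, SRT2104 against CR gave 1 higher and 6 lower (28%, beside 27.1% of all probes), with Sdhaf1, needed to put the iron-sulphur centres into Sdhb, at -0.66 (SE 0.09, adjusted p 7.37e-05), Uqcc1 at -0.34 (0.00268) and Coa6 at -0.52 (0.00348). CR against SD gave 4 higher and 2 lower (24%, beside 26.7%), with Sdhaf1 at 0.43 (0.00241), Cox18 at -0.40 (0.00851) and Coa7 at -0.30 (0.00879), and SRT2104 against SD gave 1, Cox18 at -0.52 (0.0133). In muscle, SRT2104 against SD lowered Taco1, an activator of mitochondrial translation of a complex IV subunit, by 0.48 over 15 arrays (0.000925) and by 0.46 over 12 (0.000163). Over the 12 arrays 4 were higher and 5 lower (36%, beside 31.8%), among them Bcs1l, which inserts the Rieske protein, at 0.46 (0.000704) and Sdhaf3 at -0.57 (0.00110).

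Of 16 listed regulators of respiratory chain genes, 12 were measured in liver and 11 in muscle, and in liver 3 (25%) were called for CR against SD and 3 for SRT2104 against CR, near the 26.7% and 27.1% of all probes. Against SD, CR livers had higher Esrra, an orphan nuclear receptor of mitochondrial genes, at 0.55 (SE 0.09, adjusted p 0.000405), and lower Ppargc1a and Ppargc1b, its coactivators, at -1.28 (0.00635) and -0.71 (0.00589). Against CR, SRT2104 livers had Esrra at -0.54 (0.000437), Ppargc1b at 0.83 (0.00189) and Ppargc1a at 1.06 (0.0183). Against SD, SRT2104 called 0 regulators in liver, and in muscle it lowered Tfam, which packages and transcribes mitochondrial DNA, by 0.66 over 15 arrays (0.00794) and 0.60 over 12 (0.00181). Tfam was the only regulator called in muscle over 15 arrays (9.09%, beside 10.8% of all probes). Over the 12 arrays 2 regulators were higher and 2 lower (36.4%, beside 31.8%). The CR effect on Esrra differed between muscle and liver by -0.69 (SE 0.18, adjusted p 0.0237).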

How the data were processed

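RNA of liver and muscle was hybridised to Illumina MouseRef-8 v2 arrays. GenomeStudio was used by the authors to extract the values, in version 1.6.0 by the submitters' processing notes. The signal deposited for each probe is an intensity on a linear scale, and the deposited detection p-value compares it with the array's own negative controls. The deposited score is the z-score of the natural log of the signal, computed by the authors per array. Replicates were taken from the score columns, since the headings of the signals give a tissue, a diet and a running number that the titles do not carry, and were matched to groups only.

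For liver 11065 and for muscle 10792 probes passed detection (p-value under 0.02) on 5 or more of 15 arrays. Scores of each array were scaled to mean 0 and SD 1 over these probes and multiplied by the tissue's mean array SD of ln signal (1.19 in liver, 1.03 in muscle), with the mean signal added back, and expressed in log2 units. The differences between tissues used 12859 probes kept in either tissue and a common SD of 1.12. This scaling sets every array to the same mean and spread, so that changes are relative to the probes of an array.

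The 3 diets of a tissue were fitted in 1 model with limma (version 3.58.1, R 4.3.3), two-sided, with Benjamini-Hochberg adjustment over all kept probes and a threshold of 0.05. Interactions used all 30 arrays and took those of the 2 tissues as independent, with the replicate number as a mouse in an alternative. Confidence intervals are 95% and use limma's moderated spread. Where a probe was not detected in a group, the ratio was bounded by the lowest signal detected on each array, on the rescaled values. Each array is 1 mouse per the design text, and p-values measure the spread between these arrays only. Arrays have no depth, and their number limits the precision.

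Alternatives were neqc (offset 16), quantile normalization, median scaling, scores as deposited, other filters, the methods' t-test, the replicate number as a block, fits of only the diets compared, and leaving out arrays. Sets of 13 and 10 muscle arrays, single arrays left out of the 12, 14 liver arrays and the block over 12 muscle arrays were chosen after seeing the data. The fits were tested on simulated data. Named members were the isoform sets, complex II, Cyc1 and Cycs, up to 10 probes per comparison with the smallest adjusted p past 0.05, members whose probes disagree, and up to 3 assembly factors and regulators per comparison. Other names were added with their values in view. The members and lists were chosen with earlier results of these data known. Figures were drawn with matplotlib 3.10.9.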

Additional observations from a re-analysis of the deposited data

Results flagged for a closer look

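In 35 of 228 groups of 5 arrays (15.4%) the highest or lowest member value stood far from the others by Dixon's test, where chance gives about 1 in 20 (5%). Muscle CR replicate 3 held 14 of these flags and muscle SD replicate 1 held 9, both among the arrays that stood apart. All values below are log2 signals on the scale of their own tissue, not the one common to both.

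Muscle CR replicate 3 was low for Sdhb (7.7 and 8.4 on its 2 probes), Cyc1 (7.6), Cox7a2l (7.4), Atp5d (7.6), Atp5g2 (7.3), Atp5j (7.5), Atp5o (7.1) and Atp5pb (7.7), where the other CR muscles read 8.4 or more on each of these probes. It was high for Uqcrh (15.01 against 13.9 to 14.2), Cox7a1 (14.8), Cox7c (14.8), Cox8b (14.8) and Atp5e (12.2 against 9.0 to 9.3). Probes of 1 gene parted on this array, with Cox6b1 at 14.3 on one probe and 9.62 on the other, against 13.5 to 14.0 and 13.1 to 13.3 on the other CR muscles.

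Muscle SD replicate 1 was low for Uqcr11 (12.9), Cox4i1 (12.7), Cox5a (13.2), Cox7c (13.1), Cox8b (13.1), Atp5b (13.9 against 15.2 to 15.5), Atp5d (11.4), Atp5g1 (13.1) and Atp5g2 (10.7). Muscle SRT2104 replicate 3 was high for the liver forms Cox6a1 (11.2 and 12.3 on its 2 probes, against 8.7 to 9.4 and 9.9 to 10.4) and Cox8a (12.1 against 10.7 to 11.1). Single muscle values were flagged for Cycs on SD replicate 5 (8.0), Sdhb on SD replicate 2 (12.2), Atp5l on SRT2104 replicate 1 (11.5) and Atp5o on SRT2104 replicate 4 (7.6). In liver, SRT2104 replicate 5 was high for Cox4i1 (14.6), Cox6b1 (14.0) and Cox8a (14.3), and CR replicate 5 was low for Cox7a2l (11.4) and Atp5l (12.3).

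Between the tissues, 13 effects differed by the interaction test with 12 muscle arrays. The SRT2104 effect in muscle minus that in liver was -1.51 for Cox7a2l, -2.09 for Atp5pb, -0.61 for Atp5o, -0.67 for Cox7c, -0.86 and -0.57 for the 2 probes of Atp5j, -0.51 for Uqcrh, -0.44 for Cox5a, -0.38 for Atp5l, 0.61 for Atp5e and 0.42 for Atp5d. The CR effect differed by -0.46 for Atp5j and by -0.53 for Cox7a1. None of these differences passed over all 30 arrays.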

How the results depend on the processing

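The members called for SRT2104 against CR in liver kept within 1.5 times the main count under every alternative, with 12 to 17 when 1 array was left out. For CR against SD in liver (18 calls), leaving out 1 array gave 10 to 20, the lowest without CR replicate 4, and 11 without SD replicate 2 or CR replicate 5, and median scaling moved the member median to 0.043 from 0.17. For SRT2104 against SD in liver (1 call), leaving out 1 array gave 0 to 2, median scaling gave 4, the deposited scores as they are 2, no filter 2, and neqc, detection on all 15 arrays, only the diets compared and the methods' t-test 0 each, and the member median was -0.12 with median scaling against 0.04. For SRT2104 against SD in muscle (0 calls), leaving out 1 array gave 0 to 9, the 9 without CR replicate 3, and 12 arrays gave 12, 13 arrays 12, 10 arrays 15, neqc 2, quantile normalization 5, median scaling 3, detection on all 15 arrays 1, only the diets compared 8, the methods' t-test 6 and the mean of the probes of a gene 1. For SRT2104 against CR in muscle (3 calls), leaving out 1 array gave 0 to 8, and 12 arrays gave 16, 13 arrays 10, 10 arrays 15, neqc 1, quantile normalization 6, and the deposited scores as they are, no filter, only the diets compared and the methods' t-test 0 each. CR against SD in muscle stayed at 0 throughout over 15 arrays and at 0 to 1 when 1 of the 12 arrays was left out. Over the 12 arrays, leaving out 1 gave 9 to 17 calls for SRT2104 against SD and 12 to 18 against CR. For SD muscle against SD liver the range was 45 to 46. The interaction for SRT2104 (0 calls) gave 11 with 12 muscle arrays (10 with the replicate number as a block), 11 with also 14 liver arrays and 0 to 8 with 1 array left out, the 8 without muscle CR replicate 3, and that for CR (0 calls) gave 2 with 12 muscle arrays and 0 to 0 with 1 left out. Causes were not tested.

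Replicate numbers were shared between groups, and the deviations of same-numbered arrays had correlations from -0.251 to 0.364. Every pair was positive for muscle SRT2104 with muscle CR (0.0353 to 0.214), and in no other comparison was this so. For liver SD with muscle SD they ran from -0.123 to 0.364. With the replicate number as a block, liver gave 20 calls for CR against SD, 15 for SRT2104 against CR and 0 for SRT2104 against SD, muscle gave 3 for SRT2104 against CR and 0 for both comparisons with SD, the tissues gave 46, and both interactions gave 0.

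Among the single probes named, 11 values reversed, and all were small over 15 arrays. Atp5e in muscle, SRT2104 against CR (0.05), was -0.027 with the deposited scores as they are and with no filter, -0.004 without SRT2104 replicate 5, and -0.14, -0.06, -0.10 and -0.12 without CR replicate 1, 2, 4 and 5, and lay between -0.14 and 0.65 over all fits without 1 array. Atp5j in the same comparison (-0.12) was 0.28 with neqc and 0.01 without SRT2104 replicate 4, and lay between -0.54 and 0.014 over all fits without 1 array, the highest without CR replicate 4. The CR effect on Cox7a1 in muscle minus liver was 0.092 with the deposited scores as they are. The other values of named probes kept their direction, with 1415 on the same side of the threshold, 69 no longer past it and 126 newly past it. Neqc, quantile normalization and median scaling were not run over 12 arrays, since signals were matched to groups only. Signal over background was lower in muscle (1.39 to 3.84) than in liver (2.85 to 4.66), which limits dim probes there.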
